A study of Mus musculus with 6 samples.

Results

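The Wnt genes described here are 57 of the 24411 gene symbols counted by bulk RNA-seq in 6 libraries, 3 from each of a pair of endothelial lines of the mouse. They were chosen by symbol alone: every numbered Wnt, Fzd, Dkk, Sfrp and Rspo gene, with the coreceptors Lrp5 and Lrp6, Reck, Apcdd1, the receptors Lgr4 to Lgr6, the ligases Rnf43 and Znrf3, and the intracellular Axin1, Axin2, Ctnnb1, Tcf7, Tcf7l1, Tcf7l2 and Lef1. One group held 3 libraries of bEnd.3, a brain endothelial line of BALB/c origin immortalised with polyomavirus middle T antigen. The other held 3 libraries of UV2, written UV♀2 in full, an endothelial line of (BALB/c x C57BL/6)F1 origin whose tissue and means of immortalisation the sources used here do not give. Both lines were grown to confluence on 10-cm dishes, kept in medium free of serum for 3 days and detached with trypsin-EDTA before RNA isolation, so neither group is an untreated control of the other. Each group is a single cell line, and nothing in the labels says that its 3 libraries came from separate cultures. The p-values therefore measure a spread between libraries that may be technical. The lines differ in origin and strain together. They also differ in Y chromosome transcripts, whose 4 well-expressed genes had a median log2 fold change of -10.84 (UV2 minus bEnd.3). Line, strain, sex chromosome content and the mapping of BALB/c reads to a C57BL/6 reference therefore cannot be told apart.

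Wnt proteins are secreted, lipid-modified ligands that bind Frizzled receptors. Together with the coreceptors LRP5 and LRP6 they stop the axin-containing destruction complex from degrading β-catenin, which then acts on target genes with the TCF and LEF transcription factors. In brain endothelium the ligands Wnt7a and Wnt7b signal through Reck and the adhesion receptor Adgra2, while the unrelated ligand norrin uses Fzd4, Lrp5 and Tspan12. Both inputs are known for their part in forming and keeping the blood-brain barrier. R-spondins bind Lgr receptors and take the ligases Znrf3 and Rnf43 off the membrane, which keeps Frizzled receptors there.

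Levels are CPM (counts relative to TMM-scaled library totals), given for replicates 1, 2 and 3 in that order and as mean ± SD over n = 3 libraries. A log2 fold change is UV2 minus bEnd.3, followed by its standard error (SE). Each adjusted p is that of edgeR's quasi-likelihood test, with the Benjamini-Hochberg method applied over all 12720 tested genes, and a gene was called when it was under 0.05. Total expected counts were 21306441 to 28748128 per library.

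Transcripts of the pathway were split sharply by member. Of the 57 genes, 8 had no count in any library, 23 had 1 to 43 counts over the 6 libraries together and were too low to test, and 26 were tested. Of these 26, 10 were higher in UV2, 10 lower, and 6 were not called. That is 76.9% called, where 67.1% of all tested genes were called (33.9% higher and 33.3% lower). By more than 2-fold (edgeR's glmTreat), 4 were higher (Wnt7b, Fzd1, Fzd2 and Fzd6) and 6 were lower (Dkk2, Fzd4, Tcf7l1, Wnt5b, Wnt9b and Lgr6), against 10.6% and 8.81% of all tested genes. At 22 of the 26 the ranges of the lines stood apart, against 73.2% of all tested genes. Fzd1, Wnt7b, Wnt5b, Wnt9b and Lgr6, 5 in number, reached the count filter in libraries of 1 line only and so had to differ, so nothing is read from these shares and these 5 are given below by their levels and folds, with no p-value. The median log2 fold change of the tested members was -0.16, and it was -0.01 over all tested genes. In bulk RNA, fewer cells with a transcript and less of it per cell cannot be told apart.

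**Figure D1:**
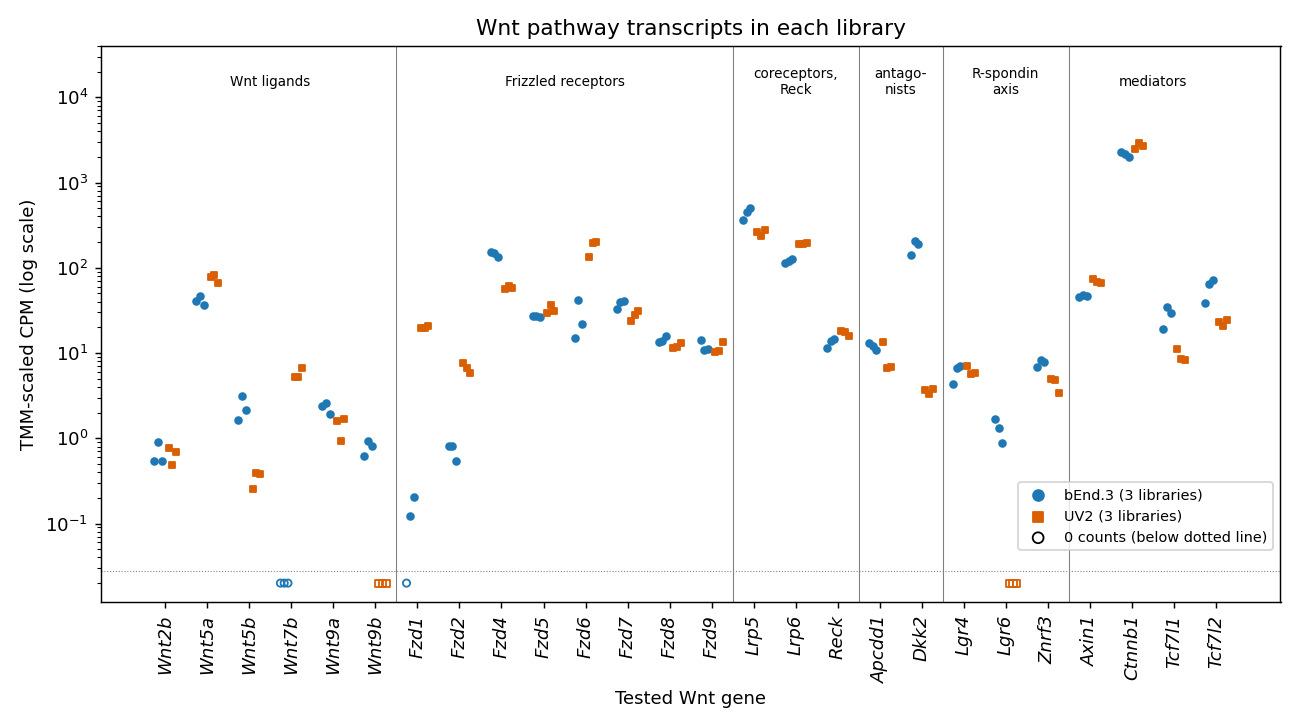
TMM-scaled CPM on a log scale for the 26 tested Wnt genes, grouped by role, with a point for each of the 3 bEnd.3 libraries (circles) and 3 UV2 libraries (squares), and open symbols under the dotted line for 0 counts. Dkk2 lies at 140 to 205 CPM in bEnd.3 and under 4 CPM in UV2, while Fzd1 lies at 19.6 to 20.7 CPM in UV2 and at most 0.204 CPM in bEnd.3.

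Sequences upstream of 4 members are shown, 3 for a large difference between the lines and 1 for a motif. Fzd1 was close to absent in bEnd.3, Wnt9b had 0 counts in UV2, Dkk2 had the largest fall among members above 10 CPM, and Wnt5b held a TCF/LEF motif in its promoter window, alone among the 16 tested members that have a window. The RefSeq promoter table (GRCm38.p6) matched 37 of the 57 members with 47 windows of 300 bases, from 250 bases before to 50 after each start. The motif searched was CTTTGAT on both strands, a form of the TCF/LEF site that holds no CG. It stood in 2 of the 47 windows (4.26%), those of Wnt5b and the untested Wnt11, and in 3.73% of all 32851 windows. The 250 bases before the start are printed 5′ to 3′ on the gene's strand, with CG dinucleotides in capitals in the first 3 and the motif in capitals in the last:
Fzd1: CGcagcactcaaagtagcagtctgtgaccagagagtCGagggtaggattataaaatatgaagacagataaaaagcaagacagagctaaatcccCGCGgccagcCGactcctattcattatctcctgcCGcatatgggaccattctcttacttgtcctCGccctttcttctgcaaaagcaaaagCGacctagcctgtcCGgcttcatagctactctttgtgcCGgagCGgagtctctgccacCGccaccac
Wnt9b: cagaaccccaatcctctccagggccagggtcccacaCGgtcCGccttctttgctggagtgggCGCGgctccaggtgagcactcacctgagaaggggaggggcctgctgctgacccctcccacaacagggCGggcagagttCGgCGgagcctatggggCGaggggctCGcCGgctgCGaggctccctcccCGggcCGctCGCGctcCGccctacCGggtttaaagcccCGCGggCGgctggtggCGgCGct
Dkk2: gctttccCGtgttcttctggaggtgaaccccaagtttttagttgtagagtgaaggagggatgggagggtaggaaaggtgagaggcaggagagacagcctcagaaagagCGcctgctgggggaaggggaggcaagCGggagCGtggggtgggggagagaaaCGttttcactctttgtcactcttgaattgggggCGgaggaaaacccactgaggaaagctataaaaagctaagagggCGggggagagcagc
Wnt5b: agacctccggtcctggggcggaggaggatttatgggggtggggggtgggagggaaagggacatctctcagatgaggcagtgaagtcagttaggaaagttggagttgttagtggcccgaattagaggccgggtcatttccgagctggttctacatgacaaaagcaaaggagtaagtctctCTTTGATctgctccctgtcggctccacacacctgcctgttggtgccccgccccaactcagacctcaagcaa
The windows are chr5:4758217-4758466 (minus strand) for Fzd1, chr11:103749822-103750071 (minus strand) for Wnt9b, chr3:132085042-132085291 (plus strand) for Dkk2 and chr6:119449387-119449636 (minus strand) for Wnt5b. No exon in GENCODE M21 overlaps these 4 windows. They hold 12, 22, 7 and 7 CG dinucleotides, where the median is 20 over the members' 47 windows and 6 over all windows in the table. The Wnt5b motif begins 71 bases before 1 of the 3 starts listed for that gene, and the gene-level counts do not show which start was used. A match describes the letters of the window only.

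Among the ligands, Wnt5a was by far the most abundant in both lines, Wnt7b was found only in UV2 libraries and Wnt9b only in bEnd.3 libraries, and Wnt5b was lower in UV2. Wnt7b, a ligand that drives barrier formation in brain vessels (chromosome 15, 85535437 to 85582473), had 0 counts in each bEnd.3 library and 123, 108 and 173 counts in the UV2 libraries, or 5.2, 5.24 and 6.67 CPM. With a floor of 3 counts taken for the 3 bEnd.3 libraries together, it was at least 146-fold higher in UV2, the line through which it passed the count filter. Of the exon bases of Wnt7b, 5.12% overlap AU022754 on the other strand, and the sources used here do not say whether the counting used strand.

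Wnt5a, the main non-canonical ligand (chromosome 14, 28504750 to 28527448), stood at 41.3, 46.9 and 36.8 CPM in bEnd.3 and at 77.7, 83.2 and 65.8 CPM in UV2. All UV2 libraries were above all bEnd.3 libraries, and Wnt5a rose 1.81-fold (log2 fold change 0.86, SE 0.12, adjusted p = 0.000378). The median log2 fold change of the 318 well-expressed genes on chromosome 14 was 0.71. With that median removed, Wnt5a had a log2 fold change of 0.14 and was not called (adjusted p = 0.311).

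The close relative Wnt5b (chromosome 6, 119432531 to 119544347) had 1.66, 3.13 and 2.14 CPM in bEnd.3 and 0.254, 0.388 and 0.386 CPM in UV2. Its log2 fold change was -2.74 (SE 0.35), and only bEnd.3 libraries reached the count filter. Wnt9b (chromosome 11, 103727364 to 103749821) had 14, 23 and 24 counts in bEnd.3, at most 0.936 CPM, and 0 counts in UV2. Against a like floor there it was at least 18.7-fold lower. Its neighbour in the genome, Wnt3 (chromosome 11, 103774150 to 103817957), went the other way in sparse counts, with 0 in bEnd.3 and 2, 3 and 2 in UV2. Wnt9a and Wnt2b did not pass the test. Wnt9a stood at 2.31 ± 0.365 CPM in bEnd.3, and in UV2 at 1.41 ± 0.424 CPM (log2 fold change -0.69, 95% confidence interval -1.32 to -0.06 before adjustment, adjusted p = 0.0514). It was called lower with either bEnd.3 replicate 3 (adjusted p = 0.0467) or UV2 replicate 3 (adjusted p = 0.0492) left out. Wnt2b had 0.659 ± 0.205 and 0.646 ± 0.144 CPM (log2 fold change -0.01, interval -0.78 to 0.76). The other 13 ligand genes were not tested. Of these, Wnt2, Wnt7a, Wnt10b and Wnt16 had 0 counts in all 6 libraries, which allows up to 0.0393 CPM in bEnd.3 and 0.0427 CPM in UV2 (3 counts over the 3 libraries, counting error only). The remaining 9 had at most 8 counts in all 6 libraries together.

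Per kilobase of exon, Wnt5a made up 74.9 ± 2.36% of the summed ligand level in bEnd.3 and 83.5 ± 3.67% in UV2 (n = 3 each). In bEnd.3 the next were Wnt5b with 10.9 ± 2.39% and Wnt9a with 8.76 ± 0.745%, which did not differ beyond their spread. In UV2 the second ligand was Wnt7b with 9.73 ± 2.20%, and Wnt5b fell to 1.01 ± 0.255%. The summed ligand level itself was 7.01 to 9.16 CPM per kilobase in bEnd.3 and 11.8 to 13.7 CPM per kilobase in UV2, so the lines did not overlap. Exon lengths were the union of exons in GENCODE M21, and isoform use was not measured.

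The leading Frizzled transcripts differed between the lines. Fzd4, which serves norrin as well as Wnt, fell, while Fzd6 and Fzd2 rose and Fzd1 was nearly confined to UV2. Of 8 tested Frizzled genes, 4 rose in UV2, 2 fell and 2 were not called, a share called of 75% that is close to the 67.1% of all tested genes. Fzd3 and Fzd10 had 1 count each in all libraries together.

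Fzd4 (chromosome 7, 89404355 to 89413134) stood at 153, 148 and 133 CPM in bEnd.3 and at 55.9, 61.3 and 57.8 CPM in UV2. The 2 groups lay far apart, each with little spread, and Fzd4 fell by 1.31 on the log2 scale (SE 0.08, adjusted p = 4.8e-06). Beyond 2-fold it was called with chromosome 7's median of -0.25 left in, and not with it removed, where its log2 fold change was -1.06. Fzd6, a receptor known for planar polarity signalling (chromosome 15, 39006034 to 39038188), had 15.1, 42.3 and 22.1 CPM in bEnd.3 and 132, 194 and 199.6 CPM in UV2. Both groups were loose, with the highest bEnd.3 library at replicate 2, but they did not overlap, and Fzd6 rose 6.62-fold (log2 fold change 2.73, SE 0.36, adjusted p = 0.000308). Chromosome 15, which holds Fzd6 and Wnt7b, had a median of 0.47, and with it removed the log2 fold change of Fzd6 was 2.25 (adjusted p = 0.000891). Counts of Fzd6 in bEnd.3 replicates 2 and 3 were not whole, so some reads were shared with other loci.

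Fzd1 (chromosome 5, 4753839 to 4758035) had 0, 3 and 6 counts in bEnd.3 and 19.9, 19.6 and 20.7 CPM in UV2. The UV2 libraries were nearly equal, and the log2 fold change of Fzd1 was 7.36 (SE 0.34). With 9 counts behind the bEnd.3 level, that value was 8.18 without bEnd.3 replicate 3. Fzd2, close to Fzd1 in sequence (chromosome 11, 102604396 to 102608058), had 0.807, 0.814 and 0.543 CPM in bEnd.3 and 7.65, 6.74 and 5.78 CPM in UV2. It rose 9.32-fold with no overlap (log2 fold change 3.23, SE 0.22, adjusted p = 1.06e-05).

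The other Frizzled genes moved little. Fzd7 had 33.0, 39.6 and 41.3 CPM in bEnd.3 and 24.04, 28.02 and 31.2 CPM in UV2, so that the lines parted by a small margin. It fell by 0.45 on the log2 scale (SE 0.13, adjusted p = 0.0133), but not with the chromosome 1 median of -0.29 removed (log2 fold change -0.16, adjusted p = 0.289). Fzd5 had 27.5, 27.1 and 26.2 CPM in bEnd.3 and 29.1, 36.1 and 31.1 CPM in UV2. Its log2 fold change of 0.25 (SE 0.10) passed by a hair (adjusted p = 0.0481) and did not with the replicate number as a block (adjusted p = 0.0517). The call was also lost without any 1 of bEnd.3 replicates 1, 2 and 3 or UV2 replicates 2 and 3 (adjusted p of 0.0618 to 0.152). With the chromosome 1 median removed, Fzd5 stayed called, at a log2 fold change of 0.54 (adjusted p = 0.00181). In GENCODE, 17.8% of Fzd5 exon bases overlap Gm38058 on the other strand. Fzd8 (14.3 ± 1.26 and 12.1 ± 0.75 CPM, bEnd.3 first, adjusted p = 0.0833) and Fzd9 (12.1 ± 1.96 and 11.5 ± 1.86 CPM, adjusted p = 0.71) did not pass. The intervals of their log2 fold changes were -0.50 to 0.01 and -0.45 to 0.30.

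Per kilobase of exon, Fzd4 was the leading Frizzled transcript in each bEnd.3 library with 42.7% to 49.3% of the summed Frizzled level, and Fzd6 was the leading one in each UV2 library with 49.3% to 56.9%. The share of Fzd4 in UV2 was 10.7% to 13.6%, and the share of Fzd6 in bEnd.3 was 7.46% to 18.7%. The ratio of Fzd4 to Fzd6 per kilobase was 2.28 to 6.60 in the bEnd.3 libraries and 0.189 to 0.276 in the UV2 libraries. The summed Frizzled level was 45.4 to 51.6 CPM per kilobase in the bEnd.3 libraries and 61.3 to 80.2 CPM per kilobase in the UV2 libraries, with no overlap.

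**Figure D2:**
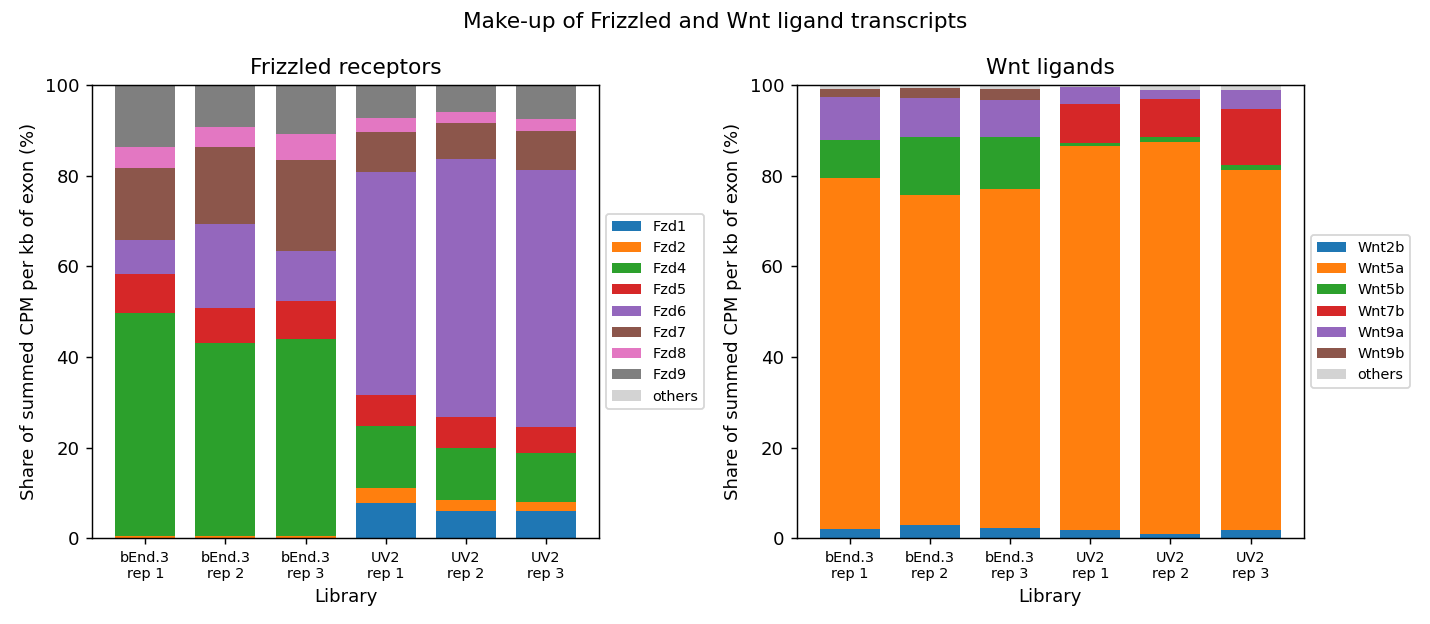
Share of each Frizzled gene (left) and each Wnt ligand gene (right) in the summed level of its family, as a percentage of CPM per kilobase of exon, with 1 bar for each library and genes under 2% in every library pooled as others. Fzd4 leads in the bEnd.3 bars and Fzd6 in the UV2 bars, and Wnt5a leads the ligands in all 6.

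The coreceptors moved in opposite directions. Lrp5, which serves both Wnt and norrin (chromosome 19, 3584828 to 3686564), had 366, 456 and 499 CPM in bEnd.3 and 260, 238 and 281 CPM in UV2. All bEnd.3 libraries were above all UV2 libraries, and Lrp5 fell by 0.76 on the log2 scale (SE 0.12, adjusted p = 0.000867). Lrp6 (chromosome 6, 134446476 to 134566965) had 113, 119 and 126 CPM in bEnd.3 and 191, 190 and 197 CPM in UV2. It rose 1.61-fold (log2 fold change 0.69, SE 0.06, adjusted p = 5.4e-05), again with no overlap, and its UV2 counts were not whole. Per kilobase of exon the ratio of Lrp5 to Lrp6 was 5.03 to 6.19 in bEnd.3 and 1.95 to 2.22 in UV2, so Lrp5 stayed the more abundant of the 2 in every library.

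Reck, the membrane protein that lets endothelial cells sense Wnt7 ligands (chromosome 4, 43875530 to 43944806), had 11.4, 13.9 and 14.7 CPM in bEnd.3 and 18.0, 17.5 and 15.8 CPM in UV2. The lines parted by a small margin (log2 fold change 0.35, SE 0.12, adjusted p = 0.0331). The call was lost with the replicate number as a block (adjusted p = 0.051) and with the chromosome 4 median of 0.25 removed (adjusted p = 0.465). It was also lost without any 1 of bEnd.3 replicates 1 and 2 and UV2 replicates 1 and 2 (adjusted p of 0.0538 to 0.0871). Its partner Adgra2 had 32.7 ± 1.98 and 31.8 ± 3.43 CPM and a log2 fold change of -0.04 (SE 0.10, adjusted p = 0.718).

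Among the genes grouped here as antagonists, Dkk2 was the most abundant in bEnd.3 and fell in UV2, where Apcdd1 had more CPM than Dkk2. Per kilobase of exon the 2 genes did not differ beyond their spread in UV2. Dkk2 had 0.968 ± 0.0572 and Apcdd1 0.833 ± 0.365 CPM per kilobase there. The grouping is by symbol, and whether any of them inhibited Wnt signalling in these lines was not measured. Dkk2, a secreted protein that binds LRP5 and LRP6 (chromosome 3, 132085292 to 132180304), had 140, 205 and 190.3 CPM in bEnd.3 and 3.68, 3.34 and 3.74 CPM in UV2. It fell 49.7-fold, the largest fall among members above 10 CPM in either line (log2 fold change -5.63, SE 0.18, adjusted p = 2.25e-07). The UV2 values were tight, and the lowest bEnd.3 library was far above them. Apcdd1, a membrane-bound Wnt inhibitor that is itself a Wnt target in brain vessels, had 13.1, 12.0 and 10.7 CPM in bEnd.3 and 13.6, 6.64 and 6.90 CPM in UV2. UV2 replicate 1 lay with the bEnd.3 libraries and the other UV2 libraries lay below them, and the gene did not pass, at a log2 fold change of -0.40 (SE 0.27, adjusted p = 0.232). With UV2 replicate 1 left out it was called lower (log2 fold change -0.80, adjusted p = 0.00362). The other 7 genes of this group were not tested. Dkk1, Dkk4 and Sfrp4 had 0 counts in all libraries, and Dkk3 had 2 counts, both in bEnd.3. Sfrp1 had 2 counts in bEnd.3 and 17 in UV2, a UV2 to bEnd.3 ratio of 9.24 (exact 95% counting interval 2.19 to 82.4), with 10, 5 and 2 counts in the UV2 libraries. Sfrp2 had 5 counts, all in UV2, and Sfrp5 had 9, all in bEnd.3.

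Of the R-spondin axis, the ligands and the receptor Lgr5 were nearly silent, Lgr6 was found only in bEnd.3 libraries, and the ligase Znrf3 fell. Znrf3 (chromosome 11, 5276324 to 5444847) had 6.91, 8.30 and 7.81 CPM in bEnd.3 and 4.99, 4.85 and 3.39 CPM in UV2. With no overlap between the lines, it fell by 0.80 on the log2 scale (SE 0.18, adjusted p = 0.00462). Lgr6 (chromosome 1, 134983301 to 135105276) had 1.70, 1.30 and 0.883 CPM in bEnd.3, from 38, 32 and 26 counts, and 0 counts in UV2. It was at least 29.4-fold lower in UV2 against the floor of 3 counts. Lgr4, the receptor with the broadest expression in the family, had 6.04 ± 1.48 and 6.19 ± 0.754 CPM and did not pass (log2 fold change 0.03, interval -0.45 to 0.50). The remaining 6 genes were not tested, and Rspo4 had 0 counts. Rspo2 had 1, 2 and 0 counts in bEnd.3 and 23, 3 and 3 in UV2, so that UV2 replicate 1 held most of them. Rspo3 had 8 counts, all in UV2 replicate 3, and Rnf43 had 0 counts in bEnd.3 and 1, 2 and 6 in UV2. Rspo1 had 2 counts and Lgr5 had 1.

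The intracellular mediators were present in both lines with the exception of Lef1, Tcf7 and Axin2. Ctnnb1, which encodes β-catenin (chromosome 9, 120929216 to 120960507), was the most abundant member per kilobase of exon in both lines. It had 2266, 2137 and 1975 CPM in bEnd.3 and 2499, 2907 and 2712 CPM in UV2, with a small rise of 0.35 on the log2 scale (SE 0.09, adjusted p = 0.00991). With the chromosome 9 median of -0.26 removed, the log2 fold change of Ctnnb1 was 0.61 (adjusted p = 0.000676). β-Catenin also serves cell junctions and is controlled mainly as protein, which was not measured. Axin1, the scaffold of the destruction complex (chromosome 17, 26138688 to 26195811), had 45.8, 47.3 and 47.2 CPM in bEnd.3 and 73.1, 67.3 and 65.8 CPM in UV2. It rose 1.47-fold with a wide gap between the lines (log2 fold change 0.56, SE 0.07, adjusted p = 0.00019).

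Both TCF factors that were abundant enough to test fell. Tcf7l2 (chromosome 19, 55741820 to 55933654) had 38.2, 63.9 and 71.0 CPM in bEnd.3 and 23.0, 20.7 and 24.6 CPM in UV2, a log2 fold change of -1.34 (SE 0.22, adjusted p = 0.000881). Tcf7l1, which acts mostly as a repressor (chromosome 6, 72626378 to 72789254), had 19.0, 34.7 and 29.5 CPM in bEnd.3 and 11.3, 8.58 and 8.29 CPM in UV2, a log2 fold change of -1.56 (SE 0.23, adjusted p = 0.000567). In both genes bEnd.3 replicate 1 was the lowest of its line and still above every UV2 library. Tcf7l1 was not called beyond 2-fold with the replicate number as a block, nor without any 1 of bEnd.3 replicates 2 and 3 and UV2 replicates 2 and 3, and Tcf7l2 was called beyond 2-fold only without bEnd.3 replicate 1. The summed level of the 4 TCF and LEF genes fell from 14.9 to 25.8 CPM per kilobase of exon in bEnd.3 to 7.63 to 8.98 CPM per kilobase in UV2. Within that sum the share of Tcf7l2 was 56.0% to 62.6% in bEnd.3 and 57.8% to 66.9% in UV2, and these ranges overlapped.

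Among members picked here as read-outs of β-catenin activity, which are not a full set, Axin2, Lef1 and Tcf7 were scarce in both lines. Apcdd1, a Wnt target in brain vessels, was not, with 11.9 ± 1.21 CPM in bEnd.3 and 9.06 ± 3.97 CPM in UV2. Axin2, the feedback scaffold, had 3, 1 and 7 counts in bEnd.3 and 9, 5 and 18 in UV2, a UV2 to bEnd.3 ratio of 3.16 (exact 95% counting interval 1.55 to 6.95). Lef1 had 2 counts in bEnd.3 and 1 in UV2, and Tcf7 had 9 and 21. None of the 3 passed the count filter, and with no filter none was called (adjusted p = 0.0566 for Axin2, 0.724 for Lef1 and 0.141 for Tcf7). Other read-outs were mixed. In the further list of target genes below, 22 of the 42 genes counted averaged under 1 CPM in both lines. Ccnd1 and Wisp1, also described below, were far above that level in bEnd.3. Nkd1 had 2 counts in all libraries and Notum had 2, while Sp5, which passed the count filter, was at 0.468 ± 0.238 CPM in bEnd.3, and at 0.427 ± 0.114 CPM in UV2 (adjusted p = 0.839).

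**Figure D3:**
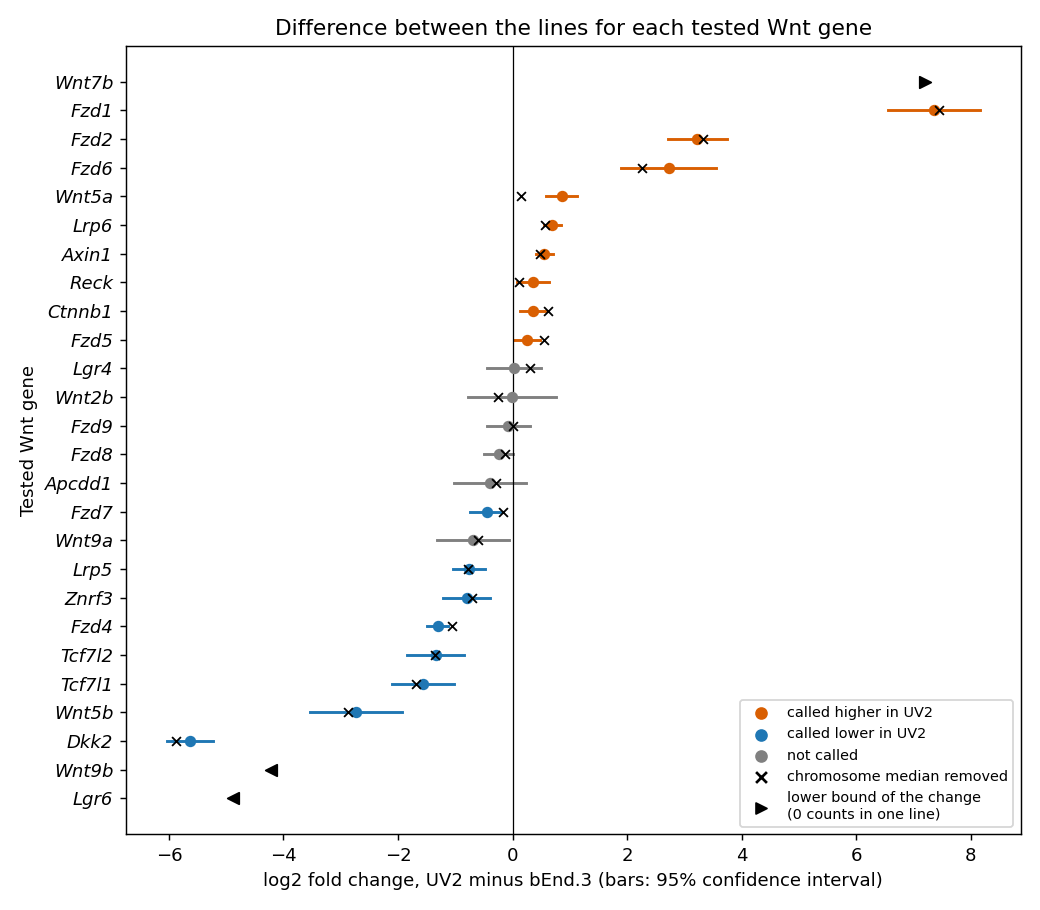
Log2 fold change, UV2 minus bEnd.3, of the 26 tested Wnt genes, with 95% confidence intervals before adjustment; crosses show the value after the median of the gene's chromosome was removed, and triangles show lower bounds for the 3 genes with 0 counts in 1 line. Wnt5a moves from 0.86 to 0.14 with its chromosome median removed, while Dkk2, Fzd1 and Fzd2 hardly move.

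Further genes of the pathway were described by 6 lists that left the 57 members out. In these lists 130 genes were in the table and 91 were tested, with 25 higher in UV2, 33 lower and 33 not called. Their median log2 fold change was -0.05, close to that of all tested genes. The counts of each list below stand beside 33.9% of all tested genes called higher and 33.3% called lower, and with 5 to 26 tested genes a list nothing particular to a list is read from them. The counts include genes that had to differ. Gpc4, Abcb1a and Frat1 reached the count filter only in UV2 libraries, and Gpc6, Vangl2, Wisp1 and Cldn5 only in bEnd.3 libraries. For such genes only levels and folds are read, and their calls add nothing. Genes named below beyond the highest and lowest called of each list and a fixed set (Wls, Porcn, Adgra2, Tspan12, Ndp, Nkd1, Notum, Sp5 and Tnfrsf19) were chosen after their values were seen.

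For ligand export and capping, 5 of 9 tested genes rose in UV2, 3 fell and 1 was not called (median log2 fold change 0.57). Wls, which carries Wnt proteins to the cell surface, rose from 233 ± 26.2 to 346 ± 21.9 CPM, a log2 fold change of 0.57 (SE 0.10, adjusted p = 0.00118). Porcn, the enzyme that attaches the Wnt lipid, had 2.07 ± 0.658 and 2.99 ± 0.395 CPM and did not pass (adjusted p = 0.107), except with bEnd.3 replicate 3 left out (adjusted p = 0.0195). The glypican Gpc4 had 0 counts in bEnd.3 but 13.5 ± 2.05 CPM in UV2, which is at least 339-fold higher, while Gpc6 had 2.81 ± 0.211 CPM in bEnd.3 and 2 counts in UV2. The bEnd.3 to UV2 ratio of Gpc6 was 98.0 (exact 95% counting interval 26.8 to 814). The heparan sulfate sulfatases, which free Wnt from the cell surface matrix, went opposite ways. Sulf1 rose from 3.94 ± 0.912 to 53.2 ± 12.6 CPM and Sulf2 fell from 137 ± 18.5 to 9.03 ± 3.41 CPM (log2 fold changes 3.76 and -3.93, SE 0.23 and 0.27).

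Of the other extracellular inhibitors and partners, 1 of 5 tested genes rose, 2 fell and 2 were not called (median log2 fold change -0.04). The number that rose was 0 without bEnd.3 replicate 3 or UV2 replicate 1, and 3 without UV2 replicate 3. Frzb, a secreted Frizzled-like inhibitor, rose from 3.42 ± 2.25 to 9.90 ± 4.83 CPM, a log2 fold change of 1.55 (SE 0.48, adjusted p = 0.0218). That call was lost without any 1 of bEnd.3 replicates 2 and 3 and UV2 replicate 1 (adjusted p of 0.0684 to 0.0817), and with bEnd.3 replicate 1 left out the gene stood at 2.22. Kremen1, the receptor with which Dickkopf proteins act on LRP6, fell from 57.4 ± 10.4 to 29.2 ± 1.41 CPM (log2 fold change -0.97, SE 0.13). Tspan12, the partner of Fzd4 in norrin signalling, fell from 39.6 ± 1.47 to 22.1 ± 4.69 CPM, a log2 fold change of -0.84 (SE 0.15, adjusted p = 0.00135). Fzd4, Lrp5 and Tspan12, the 3 receptor components for norrin, were each called lower in UV2, as were 33.3% of all tested genes. The ligand gene Ndp had 0 counts in every library, and norrin signalling was not tested.

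Non-canonical receptors and planar polarity genes counted 1 higher, 8 lower and 2 not passed among 11 tested, with a median log2 fold change of -0.51. Ptk7, a Wnt coreceptor of planar polarity, was the 1 that rose, from 4.40 ± 0.61 to 81.0 ± 10.9 CPM (log2 fold change 4.20, SE 0.14). Vangl2, a core planar polarity gene, fell from 8.42 ± 0.581 to 0.0526 ± 0.0585 CPM (log2 fold change -7.09, SE 0.38), or -8.25 with UV2 replicate 3 left out. Celsr1 and Daam1 also fell, with log2 fold changes of -3.01 (SE 0.42) and -0.90 (SE 0.08). Of Dishevelled and destruction complex genes, 7 of 26 rose, 6 fell and 13 were not called (median 0.04). The 7 include Frat1, which reached the count filter only in UV2 libraries and so had to differ. Apc2, an Apc homologue, rose from 0.357 ± 0.289 to 2.87 ± 0.551 CPM, by 2.93 on the log2 scale (SE 0.46) and by 3.85 with bEnd.3 replicate 3 left out. The tankyrase Tnks2, which marks axin for removal, fell from 283 ± 20.0 to 158 ± 7.31 CPM, and Apc itself fell from 147 ± 6.76 to 101 ± 2.60 CPM (log2 fold changes -0.84 and -0.55, SE 0.08 and 0.06).

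Nuclear cofactors split evenly, with 5 of 20 tested genes higher, 5 lower and 10 not passed (median -0.06), or 3 higher and 8 lower with chromosome medians removed. Sox17 fell from 59.9 ± 6.51 to 0.324 ± 0.0911 CPM, and Sox7 rose from 50.9 ± 3.38 to 344 ± 29.5 CPM (log2 fold changes -7.49 and 2.76, SE 0.18 and 0.09). Both are endothelial SOX factors that can bind β-catenin. Bcl9 and Bcl9l, which link β-catenin to the transcription machinery, fell by 0.66 (SE 0.11) and 1.00 (SE 0.13) on the log2 scale. Among Wnt target genes, in general and in brain endothelium, 6 of 21 tested genes rose, 10 fell and 5 were not called (median -0.11). The target list holds genes that many other signals control. Ccnd1, cyclin D1, fell from 731 ± 208 to 79.4 ± 33.5 CPM (log2 fold change -3.20, SE 0.35). Wisp1, a matricellular protein induced by Wnt1, fell from 89.7 ± 3.90 to 0.0837 ± 0.078 CPM (log2 fold change -9.95, SE 0.26), or -10.8 with UV2 replicate 3 left out. The highest and lowest called targets were the efflux pump gene Abcb1a and the claudin gene Cldn5. Their log2 fold changes were 8.41 (SE 0.35, and 10.05 without bEnd.3 replicate 3) and -11.97 (SE 0.15). Slc2a1, the glucose transporter of the barrier, rose from 36.4 ± 9.10 to 118 ± 3.82 CPM (log2 fold change 1.71, SE 0.16). Tnfrsf19 was too low to test, with 15 counts in bEnd.3 and 24 in UV2.

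**Figure D4:**
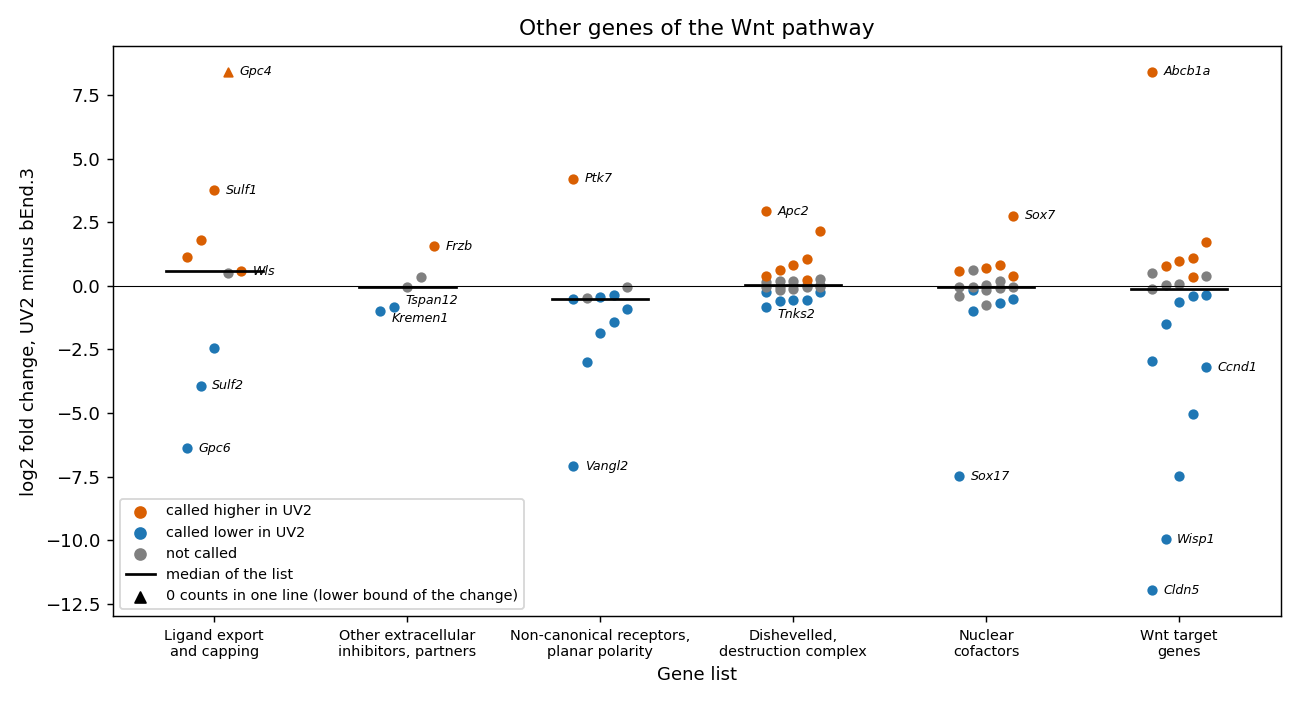
Log2 fold change, UV2 minus bEnd.3, of the tested genes in 6 further lists of the pathway, coloured by call, with a bar at each list's median, a triangle for the lower bound of Gpc4, and Sox17 in both of the last 2 lists. Of the 11 tested genes in the planar polarity list 8 are called lower, where 33.3% of all tested genes are. They include Vangl2, which reached the count filter only in bEnd.3 libraries and so had to differ. The list of the destruction complex has its median at 0.04 with Apc2 highest, at 2.93.

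Marker transcripts moved between the lines as well. Endothelial markers summed to 11830 to 12339 CPM in bEnd.3 and 11674 to 13403 CPM in UV2, a sum carried mostly by Cdh5, Pecam1, Kdr and Tie1. Of the 10 genes, 2 were called higher in UV2 (Tie1 and Vwf), 3 were lower (Erg, Emcn and Cldn5) and 5 were not called. Cldn5, at 0.262 CPM, was the only 1 of the 10 under 1 CPM in UV2, and none was in bEnd.3. Fibroblast and mural markers, 12 genes, summed to 5.56 to 6.48 CPM in bEnd.3 and 31.8 to 74.4 CPM in UV2. In UV2 Col3a1 and Pdgfra made up most of that sum, while Col1a1, Col1a2, Dcn and Lum were under 1 CPM in both lines. Of the 12, 3 were called higher in UV2 (Pdgfra, Pdgfrb and Col3a1), 1 was lower (Tagln) and 8 were too low to test. Pdgfrb reached the count filter only in UV2 libraries, and Cldn5 only in bEnd.3 libraries, so these markers had to differ. Epithelial markers summed to under 1 CPM in every library. The 8 neural and glial markers summed to at most 0.713 CPM in bEnd.3 and 3.80 CPM in UV2. The 8 blood markers summed to 89.4 to 158 CPM in bEnd.3 and 252 to 347 CPM in UV2, nearly all of it Cd68, with Ptprc at 1 count or fewer in each library. The part of these cells in the Wnt values was not tested.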

How the data were processed

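The deposited table holds expected counts for each gene symbol in 6 libraries, with no normalization by the authors. Trim Galore, STAR, RSEM and the build mm10 are named in the submitters' processing notes. The sources used here give no version, annotation or strand setting. Between 8.23% and 8.73% of values per library were not whole, and such values share reads among genes. Columns were matched to samples by title.

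Expected counts were rounded, filtered with filterByExpr (12720 of 24411 genes kept) and scaled by TMM. They were fitted with edgeR's quasi-likelihood test, group as the only term, with Benjamini-Hochberg adjustment. Same-numbered libraries deviated together (correlations 0.169, 0.304 and 0.351 across genes), while differently numbered ones had correlations of -0.366 to 0.102. The labels do not say that the number marks pairing. It was therefore left out of the main fit and used as a block in an alternative. Alternatives were other scalings, other filters, DESeq2, limma-voom and each library left out. Removal of chromosome medians (genes with average log2 CPM above 3, 95.3% of tested genes placed by symbol in the RefSeq table of GRCm38.p6) was added after seeing the data. Positions and exon lengths are from GENCODE M21 (GRCm38), and all 57 members were matched by symbol.

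Members and lists were chosen with earlier results of these data known. The rule named, with values, called members that reached 1 CPM on average in a line, tested members that reached 10 CPM, the highest and lowest called gene of each further list, and the fixed set given in the text. Values of other members (Wnt2b, Wnt9a, Wnt9b, Lgr4 and those too low to test) and of other list genes such as Sulf1, Ccnd1 and Wisp1 were added after they were seen, outside that rule. The procedure was tested on simulated data. Chi-square values of 11.3 to 38.4 per degree of freedom between replicates showed no library deposited more than once. Fits ran in R 4.3.3 with DESeq2 1.42.0, limma 3.58.1 and edgeR 4.0.16, and figures were drawn by matplotlib 3.10.9 under Python 3.11.15. Reads are not independent molecules, so floors and counting intervals cover counting error only.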

Additional observations from a re-analysis of the deposited data

How the results depend on the processing

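Over 14 alternatives the number of members called ranged from 17 to 23, with 20 in the analysis reported. Higher calls were 8 to 9 and lower calls 10 to 11 when 1 library was left out. With no filter 23 were called, Rnf43, Rspo2, Sfrp1 and Wnt3 added and Fzd5 lost. Total counts gave 8 higher and 12 lower and kept 18 of the 20 calls, with Fzd5 and Reck lost and Fzd8 and Wnt9a gained. DESeq2 kept 19 and limma-voom 20 of the same calls. With the replicate number as a block, 18 calls were kept, and Fzd5 (adjusted p = 0.0517) and Reck (adjusted p = 0.051) were lost. The block changed no other member's call at an adjusted p under 0.05. With chromosome medians removed, 17 were kept, and Fzd7, Reck and Wnt5a were lost. The filter of 1 CPM in 3 libraries left out Lgr6 and Wnt9b, and also Wnt2b, which was not called in the main fit. Of 361 member values, 10 changed sign, all of Lgr4, Wnt2b and Fzd9, which were not called, and so did values of Sp5 and Adgra2, which are not members. Lgr4 was -0.036 with total counts, Wnt2b was 0.00082 with the replicate block and 0.0103 in limma-voom, and Fzd9 was 0.0144 and Sp5 0.16 with chromosome medians removed. With each library left out, Fzd9 ranged from -0.21 to 0.064, Lgr4 from -0.16 to 0.16, Wnt2b from -0.15 to 0.27, Sp5 from -0.40 to 0.29 and Adgra2 from -0.12 to 0.012. The motif CTTTGAA in place of CTTTGAT was found in 1 member window, that of Dkk1, and in 5.14% of all windows. Members with under 44 counts in all are limited by depth, and no difference was detectable for most of them.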
